A study of Mesocricetus auratus with 36 samples.

Results

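Thyroid hormone transport, reception and response were followed through the hibernation season of the golden hamster (Mesocricetus auratus) in 9 genes, the deiodinases left aside: Tshr, Slc16a10, Slco1c1, Slc7a8, Thra, Thrb, Hr, Klf9 and Crym. The 9 genes were taken by their symbols from the 32340 genes of the count tables, and each was present in all 36 libraries' tables. No measured value entered the rule, but the list was made with earlier results of these data known. RNA came from the hypothalamic ependymal strip of male hamsters, cut out by laser capture so that tanycytes were enriched, with 6 brains in each of 6 groups.

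The long photoperiod group lived under 14 h of light at 22 °C and is labelled 8 months old. All other groups had been moved to 10 h of light and 8 °C. They were taken 4 weeks after the move (pre-hibernation, 4 months old) or at 8 to 12 weeks, still without torpor (late pre-hibernation, 6 months old). After 3 torpor-arousal cycles, animals were taken 23 h into an interbout euthermia (the warm interval between bouts) or 13 h into torpor, both at 6 months of age. The refractory group (8 months old) had left hibernation spontaneously at about 20 weeks and was taken no sooner than 2 weeks after its last torpor. No genotype was altered in any group. Day length, temperature and age moved together between long photoperiod and most other groups and cannot be told apart here. The protocol takes long photoperiod animals both before the move and at the end, so the labelled age may not hold for all 6.

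As background, tanycytes are glial cells that line the third ventricle and sit between blood, cerebrospinal fluid and hypothalamic neurons. In seasonal mammals, thyrotropin from the neighbouring pars tuberalis acts on its receptor TSHR in these cells and sets how much active thyroid hormone the hypothalamus receives. The hormone crosses membranes through transporters, is held in the cytosol by binding proteins such as the product of Crym, and acts through the nuclear receptors encoded by Thra and Thrb, which raise or lower target genes such as Hr and Klf9.

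On assembly BCM_Maur_2.0 all 9 genes are annotated as protein-coding and lie on 8 contigs, Klf9 and Crym on the same one. Tshr spans bases 26734797 to 26853133 of its contig (minus strand), Slc16a10 3652436 to 3744379 (plus), Slco1c1 10080697 to 10117142 (plus) and Slc7a8 13926727 to 13983757 (plus). Thra spans 76483099 to 76508272 (plus) and Thrb 87225225 to 87580762 (plus). Hr spans 50620649 to 50638564 (minus), Klf9 37242371 to 37269647 (minus) and Crym 78995809 to 79009792 (plus). Counts were taken over exons without regard to strand. Thrb shares exon bases with 2 antisense RNA genes, LOC121140924 and LOC121140925, so their reads cannot be fully told apart from those of Thrb. Thra ends 167 bp from Nr1d1 on the opposite strand and shares no annotated exon bases with it. Whether reads of Nr1d1 reach the Thra counts was not tested. The other 7 genes also share no exon bases with an annotated gene.

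The libraries held 5.16 to 28.54 M counts (M, 1e6). In 33 of them 0.219% to 0.826% of the counts fell on ribosomal RNA genes. The other 3, called rRNA-rich here, were pre-hibernation 5 (9.28%), interbout euthermia 6 (7.21%) and refractory 4 (41.8%). Of 12 tanycyte markers 11 were found by symbol, and their summed level lay between 2247 and 3937 normalised CPM (counts per 1e6 counts, scaled between libraries) in all 36 libraries. Other cells were present too. The summed level of 10 pituitary and pars tuberalis markers lay between 194 and 2475 CPM in long photoperiod, between 139 and 1907 CPM in the refractory group and between 101 and 695 CPM in the other 4 groups. Pomc was the largest part of that sum in each group mean, at 477.8 CPM in long photoperiod and 487.6 CPM in the refractory group. In the other 4 groups it stood at 78.85 to 150 CPM. Which cells this Pomc RNA came from was not tested, so the sum is no measure of pituitary tissue alone. Of the defining genes of the list, Gh1 had no count in 6 libraries, Fshb in 18 and Pou1f1 in 19. In this bulk tissue, fewer cells of a type and less RNA per cell cannot be told apart. A gene is called changed below an adjusted p of 0.05 (edgeR quasi-likelihood test, Benjamini-Hochberg over all 17926 genes tested). Levels are given as mean normalised CPM ± SD over n = 6 libraries per group. Differences are given as log2 fold change ± SE between groups of 6 libraries. The SE and the 95% intervals come from the model fitted to all 36 libraries, and do not measure the spread of the compared groups alone. Overlap of libraries between groups is given as a description, and its share over all genes was not computed.

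Of the 9 genes, 3 differed among the 6 groups, namely Thrb (adjusted p = 3.86e-05), Hr (0.00131) and Slco1c1 (0.0228). Another 5 did not pass, with adjusted p of 0.0745 for Thra, 0.0796 for Tshr, 0.0888 for Slc7a8, 0.159 for Crym and 0.233 for Klf9. Slc16a10 was too low to be tested. Of all genes tested, 14.6% differed among the groups. The count of members rests on the fit: DESeq2 called 6 of the 8 tested members, limma voom with quality weights 7, and edgeR without the 3 rRNA-rich libraries 5, beside 23%, 43.4% and 27.7% of all genes in those fits.

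**Figure D1:**
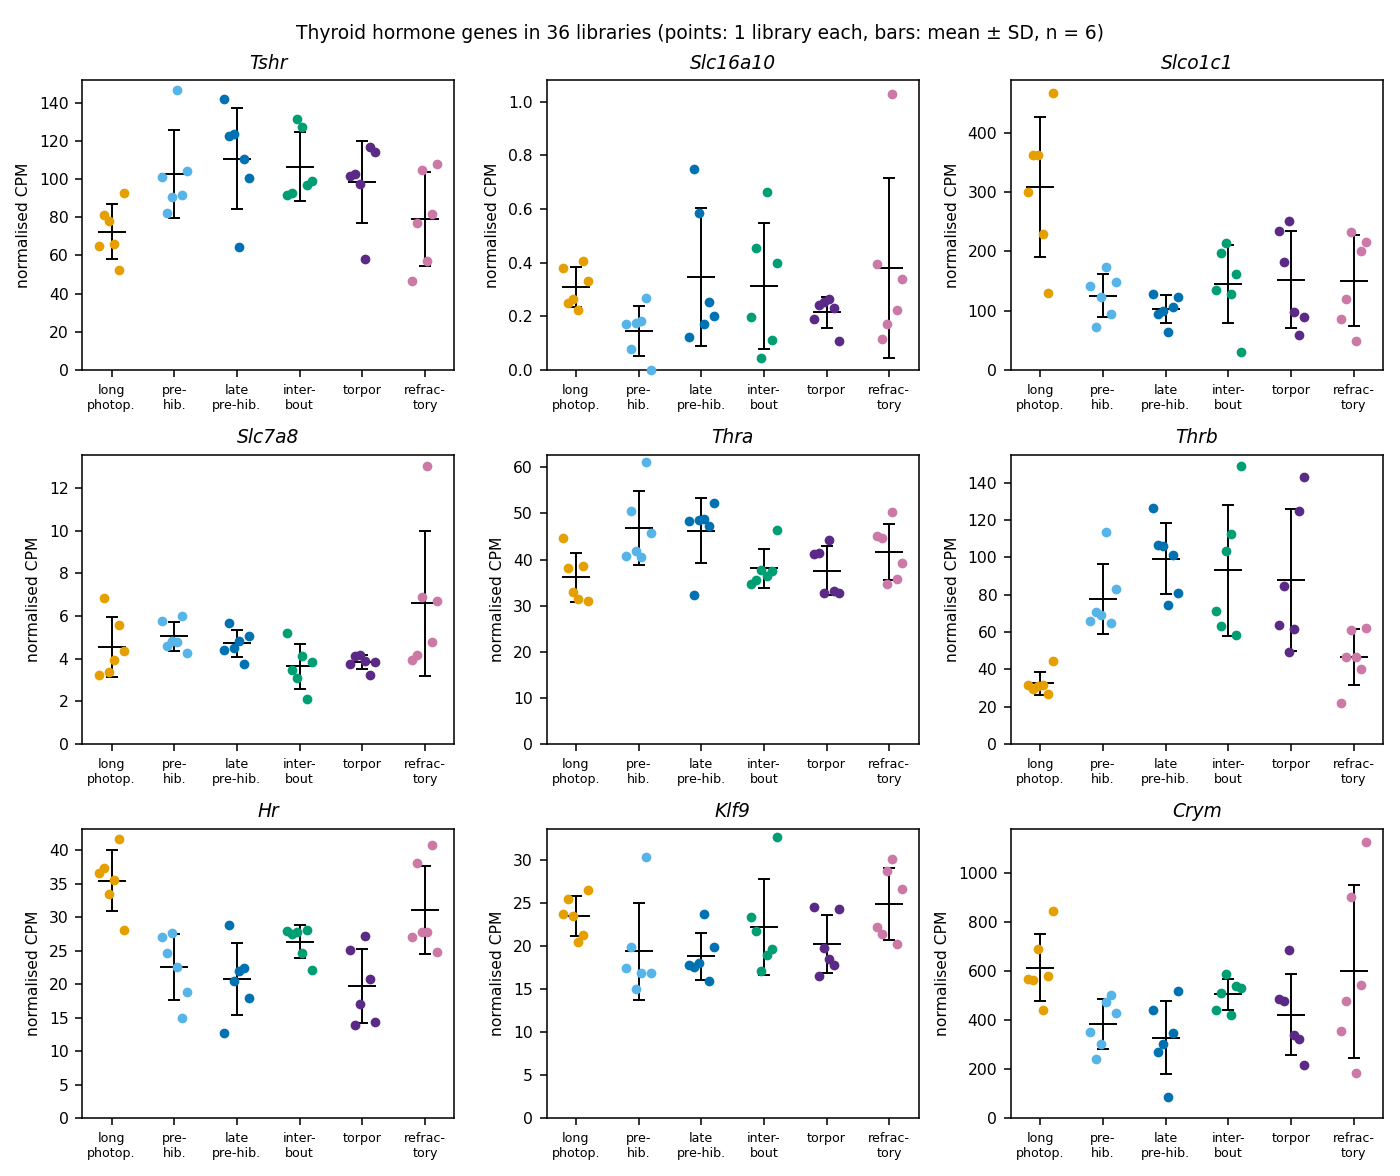
Normalised CPM of the 9 genes (y axis, each panel with its own scale from 0) in the 6 groups (x axis). Each point is 1 library and the bars give the mean ± SD of 6 libraries. Thrb in the 4 groups from pre-hibernation to torpor lay above all 6 long photoperiod libraries, and Slc16a10 stayed at 1.03 CPM or lower throughout.

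Per kb of exon, the members covered a wide range of levels. Crym stood highest, at 255.8 ± 116 CPM per kb in late pre-hibernation to 477.9 ± 107 in long photoperiod. Slco1c1 followed with 27.1 to 81.5 and Tshr with 15.02 to 22.9 CPM per kb. Thra, Thrb, Hr and Klf9 formed a middle range, with group means between 3.09 and 9.80 CPM per kb. Slc7a8 was lower, at 0.906 to 1.64 CPM per kb, and Slc16a10 lowest at 0.0467 to 0.121. Within the middle range the order changed with the season. Thrb was the lowest of those 4 genes in long photoperiod (3.09 ± 0.582 CPM per kb) and in the refractory group (4.42 ± 1.41). In late pre-hibernation it stood at 9.42 ± 1.79 beside 9.69 ± 1.47 for Thra, and in interbout euthermia and torpor its group mean was the highest of the 4 (8.82 ± 3.33 and 8.35 ± 3.59). These levels are described only, with no test between genes.

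**Figure D2:**
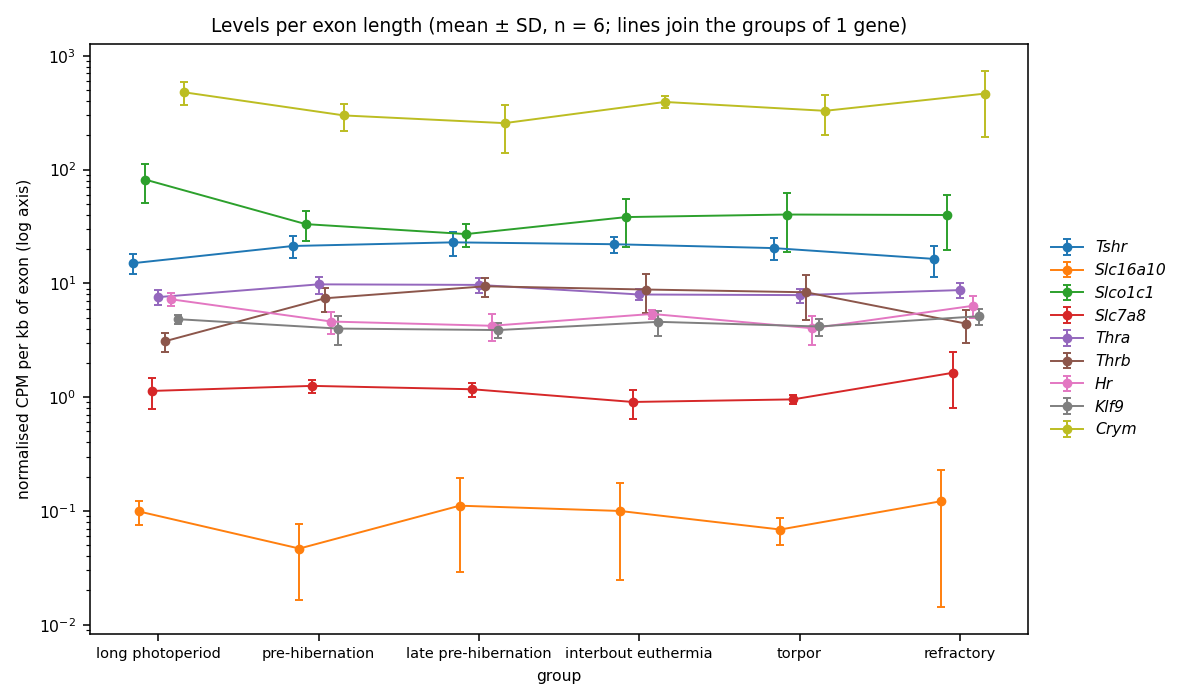
Mean normalised CPM per kb of exon (y axis, log scale) ± SD for the 9 genes in the 6 groups (x axis, n = 6 libraries each). Lines join the values of 1 gene. Crym lay highest and Slc16a10 lowest in every group, and Thrb rose from below Hr and Klf9 in long photoperiod to above both in the 4 groups from pre-hibernation to torpor.

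Thrb, which encodes thyroid hormone receptor beta, had the lowest adjusted p among the 6 groups of the 8 genes tested. It was low in all 6 long photoperiod libraries, with a lowest, median and highest level of 27.03, 31.3 and 44.6 CPM. In pre-hibernation the same 3 values were 64.8, 70.02 and 113.8 CPM, and in late pre-hibernation 74.8, 103.6 and 126.3 CPM. No library of these 2 groups overlapped with long photoperiod. In interbout euthermia Thrb ranged from 58.4 over a median of 87.5 to 148.8 CPM, and in torpor from 49.6 over 74.4 to 143 CPM. Both groups again lay wholly above long photoperiod, but with a wider spread among their own libraries. In the refractory group it was back at 22.2, 46.9 and 62.3 CPM, so that 1 library lay below and 4 lay above all long photoperiod libraries.

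Against long photoperiod, Thrb rose 2.39-fold in pre-hibernation (log2 fold change 1.26 ± 0.24, adjusted p = 0.00183) and 3.05-fold in late pre-hibernation (1.61 ± 0.25, 4.71e-05). The rise was 2.85-fold in interbout euthermia (1.51 ± 0.25, 0.000341) and 2.70-fold in torpor (1.43 ± 0.24, 0.000121). These 4 contrasts share the long photoperiod libraries. They called 2.29%, 3.58%, 1.85% and 9.05% of all genes, in that order. The refractory group did not pass against long photoperiod (0.52 ± 0.24, adjusted p = 0.36), with a 95% interval of 0.04 to 0.99, in a contrast that called 0.329% of all genes. The fall in the refractory group was called against late pre-hibernation (-1.09 ± 0.24, adjusted p = 0.0101, no overlap), torpor (-0.92 ± 0.24, 0.00965) and interbout euthermia (-0.99 ± 0.24, 0.0214). These contrasts called 5.39%, 15.2% and 3.5% of all genes. Against pre-hibernation the refractory libraries did not overlap either, but the test missed the threshold (-0.74 ± 0.24, adjusted p = 0.0631, 5.35% of all genes called), and it passed without refractory 3 (0.0387) or refractory 6 (0.0358).

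The order of Thrb levels was late pre-hibernation, interbout euthermia, torpor, pre-hibernation, refractory and long photoperiod. No 2 neighbours in that order differed by the test, the closest being pre-hibernation and refractory. The rises of Thrb over long photoperiod kept their calls in all 12 fits per contrast that left out 1 library. With long photoperiod 4 to 6 as the only controls, the pre-hibernation difference was 1.17 and not called (adjusted p = 0.10). The fall from interbout euthermia lost its call without interbout euthermia 4 (adjusted p = 0.0526) and without the 3 rRNA-rich libraries (-0.81, 0.0818).

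Other values moved along with Thrb. The antisense gene LOC121140924 went from 0.409 ± 0.162 CPM in long photoperiod to 2.55 ± 0.80 CPM in late pre-hibernation. In the refractory group it stood at 1.57 ± 1.79 CPM, an SD above the mean, with the highest library at 5.14 CPM. LOC121140925 stayed at a group mean of 0.158 CPM or lower. Among 10 endothelial markers, Esam and Kdr rose with Thrb in all 4 groups against long photoperiod (Esam from 9.41 to 56.5 CPM in late pre-hibernation), while the other 8 were not called there. The summed endothelial level had group means of 489.5 ± 98.9 to 558.2 ± 37.1 CPM. Of the 9 tested markers on the pituitary and pars tuberalis list, 5 were called lower in interbout euthermia and 5 in torpor than under the long photoperiod; pre-hibernation had 2 such calls, late pre-hibernation 1 and the refractory group 0. The part of these cells and of the antisense RNA in the Thrb values was not tested.

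**Figure D3:**
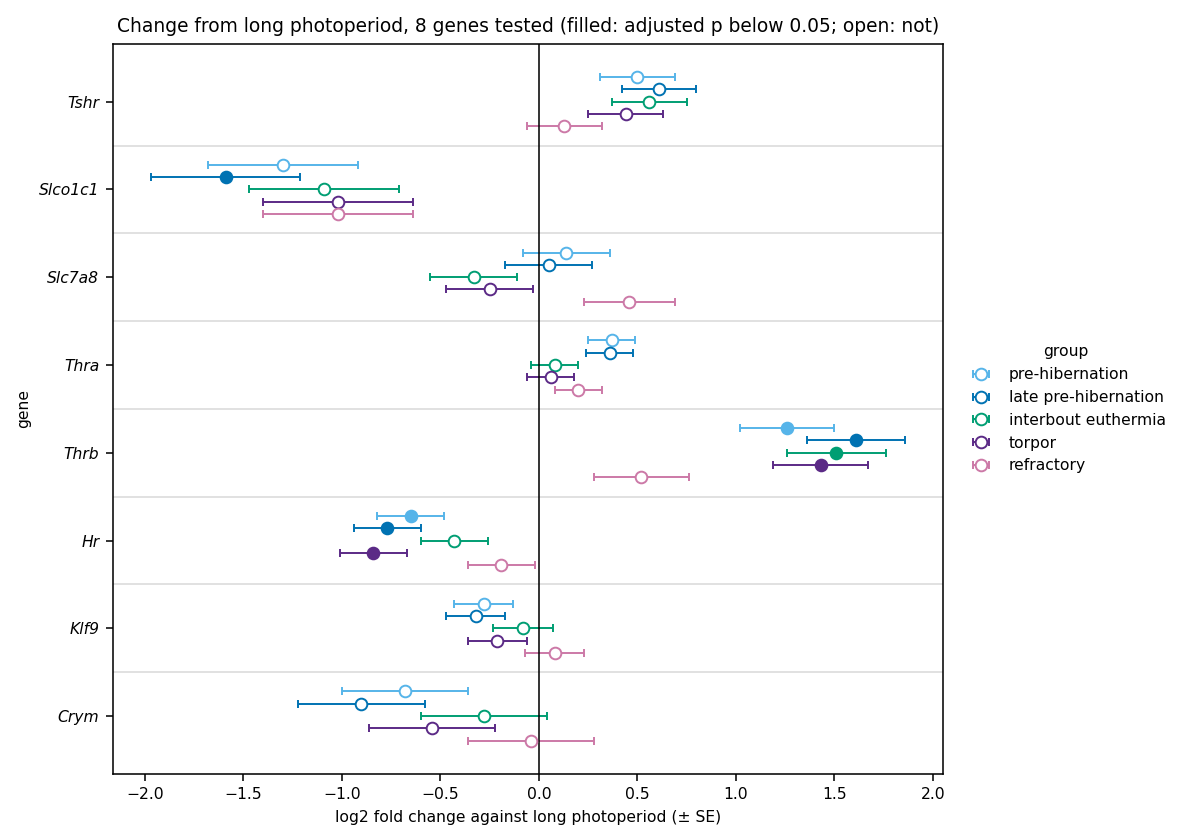
Log2 fold change ± SE against long photoperiod (x axis) for the 8 genes tested (y axis) in 5 groups, each of 6 libraries, all against the same 6 controls. Filled points passed an adjusted p of 0.05 and open points did not. Thrb lay right of 0 in 4 filled points, and Hr and Slco1c1 lay left of 0 with 3 filled points and 1.

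Thra encodes receptor alpha, the other nuclear receptor for the hormone. It moved far less than Thrb, with group means between 36.1 ± 5.29 CPM in long photoperiod and 46.8 ± 8.03 CPM in pre-hibernation. Single libraries lay between 30.9 and 61.2 CPM. Late pre-hibernation held 5 of 6 libraries above all of long photoperiod, and the exception was library 2 at 32.3 CPM. Neither pre-hibernation (log2 fold change 0.37 ± 0.12, adjusted p = 0.119) nor late pre-hibernation (0.36 ± 0.12, 0.117) passed against long photoperiod. With limma voom both were called (11.7% and 17.1% of all genes called), and DESeq2 called neither. The late pre-hibernation difference passed without late pre-hibernation 2 (0.43, adjusted p = 0.0336) and without the 3 rRNA-rich libraries (0.36, 0.0285). The opposite-strand neighbour Nr1d1, a circadian repressor, ranged from 50.9 ± 16.5 CPM in interbout euthermia to 140.5 ± 56.4 CPM in torpor, where Thra stood at 38.1 ± 4.23 and 37.6 ± 5.28 CPM.

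The share of the receptor transcripts that came from Thrb differed between group means. Per kb of exon, Thrb made up 29.2 ± 5.84% of the summed Thra and Thrb level in long photoperiod (24.1% to 39.5% over the 6 libraries). In pre-hibernation its share was 42.9 ± 7.79%, in late pre-hibernation 49.2 ± 7.38%, and during interbout euthermia and torpor 51.2 ± 7.51% and 49.7 ± 12.1%. For the refractory group it was 33.3 ± 9.34%. All late pre-hibernation and interbout libraries (41% or more) lay above all long photoperiod libraries. In torpor 4 libraries lay between 38.7% and 48.1% and the other 2 at 63% and 66.5%. The share uses the summed exon length of each gene (10545 bp for Thrb with 9 annotated transcripts, 4776 bp for Thra with 1), so its absolute height depends on which transcripts are made, and it was not tested.

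**Figure D4:**
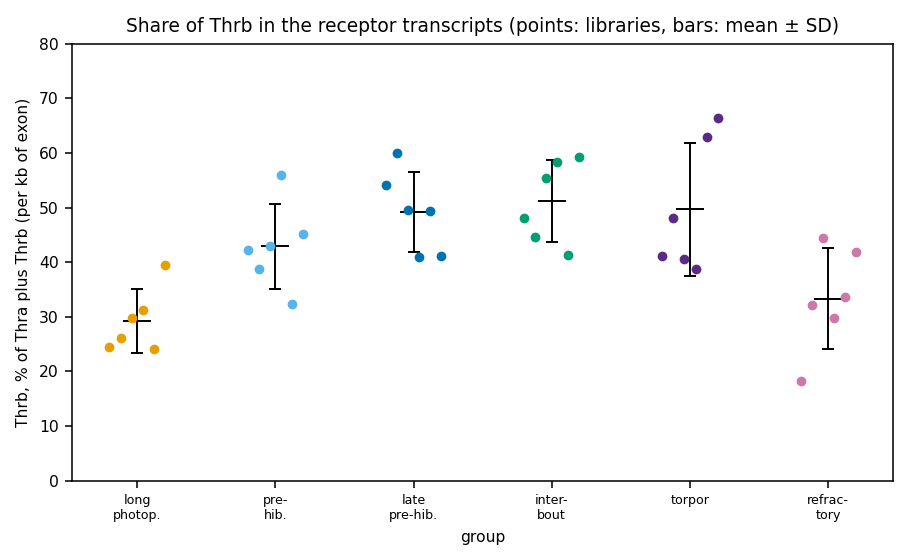
Thrb as a percentage of Thra plus Thrb, both per kb of exon (y axis), in the 6 groups (x axis). Points are libraries and bars the mean ± SD of 6. Late pre-hibernation and interbout euthermia lie wholly above long photoperiod, and the refractory group ranges from 18.3% to 44.4%.

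Hr, which encodes a corepressor that binds thyroid hormone receptors and is itself a classic thyroid hormone target in brain, had its highest group mean in long photoperiod, where Thrb had its lowest. In long photoperiod its lowest, median and highest levels were 28.01, 36.1 and 41.7 CPM. They were 14.9, 23.6 and 27.6 CPM in pre-hibernation and 14.0, 18.9 and 27.2 CPM in torpor. Neither of these groups overlapped with long photoperiod. In late pre-hibernation (12.7, 21.3 and 28.8 CPM) 5 of 6 libraries lay below all of long photoperiod, and in interbout euthermia (22.1, 27.6 and 28.1 CPM) likewise 5 of 6. The refractory group reached 24.9, 27.8 and 40.7 CPM and overlapped with long photoperiod.

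Against long photoperiod, Hr fell 1.57-fold in pre-hibernation (log2 fold change -0.65 ± 0.17, adjusted p = 0.0326), 1.71-fold in late pre-hibernation (-0.77 ± 0.17, 0.00478) and 1.80-fold in torpor (-0.84 ± 0.17, 0.00102). Interbout euthermia (-0.43 ± 0.17, adjusted p = 0.265) and the refractory group (-0.19 ± 0.17, 0.675) did not pass. Hr was higher in the refractory group than in torpor (0.66 ± 0.17, adjusted p = 0.00938) and late pre-hibernation (0.59 ± 0.17, 0.0406). Torpor against interbout euthermia did not pass for Hr (-0.42 ± 0.17, adjusted p = 0.205). The pre-hibernation call was lost in 7 of 12 fits that left out 1 library, namely without long photoperiod 1, 2, 4 or 5 or pre-hibernation 4, 5 or 6 (adjusted p 0.0636 to 0.0853). The difference between the refractory group and late pre-hibernation was lost in 7 of 12, without late pre-hibernation 1, 3, 5 or 6 or refractory 2, 4 or 5 (0.0595 to 0.123). The falls in late pre-hibernation and torpor kept their calls in all 12 fits each, but late pre-hibernation lost its call with long photoperiod 4 to 6 as the only controls (-0.77, adjusted p = 0.0764).

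Klf9, a transcription factor gene that thyroid hormone and glucocorticoids induce, was not called by edgeR in any of the 15 pairs of groups. With limma voom it was called in pre-hibernation and late pre-hibernation against long photoperiod (11.7% and 17.1% of all genes called). DESeq2 called it in neither. Group means ran from 18.8 ± 2.72 CPM in late pre-hibernation over 19.4 ± 5.61 in pre-hibernation and 23.5 ± 2.32 in long photoperiod to 24.9 ± 4.16 CPM in the refractory group. In pre-hibernation 5 of 6 libraries (15.01 to 19.95 CPM) lay below all of long photoperiod (20.5 to 26.6 CPM), and the exception was the rRNA-rich library 5 at 30.4 CPM. With all libraries the log2 fold change was -0.28 ± 0.15 (adjusted p = 0.474). Without the 3 rRNA-rich libraries it was -0.46 (adjusted p = 0.016), and Klf9 then also differed among the groups (0.0123).

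Slco1c1, which encodes the thyroxine transporter OATP1C1, was highest in long photoperiod. There it ranged from 129.3 over a median of 331.5 to 466.8 CPM, with library 5 at the low end. In pre-hibernation it ranged from 72.9 over 132 to 173.5 CPM, and in late pre-hibernation from 64.0 over 103.1 to 128.3 CPM. Late pre-hibernation did not overlap with long photoperiod, though the nearest libraries stood at 128.3 and 129.3 CPM. Interbout euthermia (29.6, 149.1 and 214.6 CPM), torpor (58.8, 139.7 and 251.4 CPM) and the refractory group (48.99, 160 and 232.9 CPM) were more spread out, and each overlapped with long photoperiod. The lowest interbout and refractory libraries were the rRNA-rich ones.

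Slco1c1 fell 3.01-fold in late pre-hibernation against long photoperiod (log2 fold change -1.59 ± 0.38, adjusted p = 0.0105). It was lower by similar amounts, without passing, in pre-hibernation (-1.30 ± 0.38, adjusted p = 0.0624), interbout euthermia (-1.09 ± 0.38, 0.161), torpor (-1.02 ± 0.38, 0.0905) and the refractory group (-1.02 ± 0.38, 0.203). No other pair of groups was called. Unlike Thrb and Hr, its refractory mean of 150.8 ± 76.1 CPM stood beside 152.3 ± 81.3 CPM in torpor (difference -0.01, 95% interval -0.74 to 0.73). The pre-hibernation difference passed without long photoperiod 5 (-1.46, adjusted p = 0.0341) and without the rRNA-rich libraries (-1.24, 0.0275). The torpor difference passed without long photoperiod 5 or torpor 3 (0.0467 each) and without the rRNA-rich libraries (-1.03, 0.0213). Pre-hibernation was also called by DESeq2 (3.55% of all genes called) and limma voom (11.7%), and torpor by limma voom (23.8%). The late pre-hibernation fall kept its call in all 12 fits that left out 1 library, but not with long photoperiod 4 to 6 as the only controls (-1.43, 0.151). The difference among the 6 groups lost its call without long photoperiod 2, 3 or 6 (0.0572 to 0.0871). Astrocytes also express Slco1c1. The summed level of 8 measured astrocyte markers was 3920 ± 369 CPM in long photoperiod, 3064 ± 242 CPM in pre-hibernation and 3162 ± 689 CPM in late pre-hibernation (SD, n = 6 each; 3370 to 4465, 2729 to 3484 and 2640 to 4411 CPM). It was 3694 ± 787 CPM in interbout euthermia, 4222 ± 478 CPM in torpor and 3443 ± 752 CPM in the refractory group (3060 to 4728, 3511 to 4944 and 2094 to 4206 CPM). All 8 had counts in all 36 libraries, and Ntsr2 was the only one called against long photoperiod, lower in each of the 5 other groups (220.2 CPM in long photoperiod and 53.8 to 93.6 CPM in the others). The part of astrocytes in the Slco1c1 values was not tested.

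The other transporters were minor by level. Slc7a8 (LAT2, which carries neutral amino acids and thyroid hormones) had group means of 3.65 ± 1.04 CPM in interbout euthermia to 6.60 ± 3.39 CPM in the refractory group. It rose in the refractory group against interbout euthermia (0.79 ± 0.23, adjusted p = 0.0444) and torpor (0.71 ± 0.23, 0.0299). Refractory 4, the library with 41.8% ribosomal RNA, stood at 13.0 CPM and the other 5 refractory libraries at 3.96 to 6.91 CPM. Without refractory 4 neither difference was called (0.55, adjusted p = 0.144, and 0.49, 0.113). The first was also lost without interbout euthermia 2, 3, 4, 5 or 6 or refractory 3 or 6 (0.0515 to 0.103), and the second without torpor 5 or 6 (0.0519 to 0.0647).

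Slc16a10 (MCT10, an aromatic amino acid and thyroid hormone transporter) was near the limit of detection. Its raw counts ran from 0 to 16 with a median of 5, and 30 of 36 libraries had fewer than 10. A single pre-hibernation library held no count, where a floor of 3 counts would be 0.126 CPM. Group means of 0.146 to 0.379 CPM at this depth do not allow the groups to be told apart.

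Tshr, the thyrotropin receptor gene, was expressed in every library between 46.7 and 146.9 CPM. Long photoperiod had the lowest group mean (72.5 ± 14.3 CPM), the refractory group the next (79.1 ± 24.6 CPM), and the other 4 groups stood at 98.5 ± 21.3 to 110.7 ± 26.5 CPM. In late pre-hibernation, interbout euthermia and torpor, 5 of 6 libraries each lay above all of long photoperiod. By edgeR none of the 4 differences passed, at log2 fold changes of 0.50 ± 0.19 (pre-hibernation, adjusted p = 0.207), 0.61 ± 0.19 (late pre-hibernation, 0.0684), 0.56 ± 0.19 (interbout euthermia, 0.15) and 0.44 ± 0.19 (torpor, 0.158). With limma voom each of the 4 was called (adjusted p = 0.0382, 0.00299, 0.0178 and 0.0364, in that order). There 11.7%, 17.1%, 8.61% and 23.8% of all genes were called. Of 11 settings other than leaving out 1 library, limma voom included, 1, 4, 2 and 1 called Tshr. DESeq2 did so in late pre-hibernation (0.0341). The late pre-hibernation difference passed without late pre-hibernation 4, whose Tshr stood at 64.7 CPM (0.72, adjusted p = 0.018), and without the rRNA-rich libraries (0.61, 0.0426). That library also had the highest summed neuron markers of its group (1004 CPM, the lowest library at 488.3). Its summed pituitary and pars tuberalis list, in which Pomc is the largest part by group mean, stood at 695 CPM.

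Crym, which encodes the cytosolic thyroid hormone binding protein mu-crystallin, was abundant and variable. Its lowest, median and highest levels were 442.3, 573.5 and 844.7 CPM in long photoperiod, 241.7, 390.7 and 501.4 CPM in pre-hibernation and 87.8, 325.9 and 518.9 CPM in late pre-hibernation. In interbout euthermia it kept within 421.9 to 586.9 CPM, whereas the refractory group ran from 184.3 to 1128 CPM. Both overlapped with long photoperiod. Neither late pre-hibernation (log2 fold change -0.90 ± 0.32, adjusted p = 0.134) nor pre-hibernation (-0.68 ± 0.32, 0.374) passed against long photoperiod. With limma voom both were called (17.1% and 11.7% of all genes called), and DESeq2 called neither. The refractory group was higher than late pre-hibernation by 0.87 ± 0.32, which did not pass either (adjusted p = 0.0993). The lowest library of late pre-hibernation was again library 4, and the lowest refractory library was the rRNA-rich library 4.

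The 8 tested members were also counted by contrast. Against long photoperiod, 2 were called in pre-hibernation (1 up, 1 down; 2.29% of all genes) and 3 in late pre-hibernation (1 up, 2 down; 3.58%). Interbout euthermia had 1 call (up, 1.85%), torpor 2 (1 up, 1 down, 9.05%) and the refractory group 0 (0.329%). In the refractory group 3 members had an unadjusted p under 0.05 (13% of all genes), and neither DESeq2 nor limma voom called any. The members' median log2 fold changes were -0.07, -0.14, -0.18, -0.23 and 0.10 in the same order, beside medians of -0.00 to 0.03 over all genes. Without the 3 rRNA-rich libraries the counts were 4 in pre-hibernation and 5 in late pre-hibernation, with 6.37% and 9.76% of all genes called.

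Among the groups kept in short days and cold that had not become refractory, no member was called in any of the 6 pairs. Late pre-hibernation against pre-hibernation called 0% of all genes and 0 members (edgeR, with 739 genes under 0.05 before adjustment, while DESeq2 called 4 genes and limma voom 10). Interbout euthermia against late pre-hibernation also called 0% of all genes and 0 members (with 1104 genes under 0.05 before adjustment, while DESeq2 called 32 and limma voom 550, Thra among the latter). Torpor against interbout euthermia called 4.06% of all genes and 0 members by edgeR. There 1 member had an unadjusted p under 0.05 (15.3% of all genes), and limma voom called Hr (10.7% of all genes called). The remaining 3 pairs were interbout euthermia (0.00558% of all genes) and torpor (4.86%) against pre-hibernation and torpor against late pre-hibernation (4.45%, where Thra was called by limma voom and, without the 3 rRNA-rich libraries, by edgeR at -0.32, adjusted p = 0.0425, with 13.4% of all genes called). By edgeR the refractory group differed from interbout euthermia in 2 members (3.5% of all genes called) and from late pre-hibernation in 2 (5.39%). It differed from torpor in 3 (15.2%) and from pre-hibernation in 0 (5.35%). In that last pair 3 members had an unadjusted p under 0.05 (21.4% of all genes). There DESeq2 called Thrb (7.6% of all genes called), and limma voom called Thrb and Klf9 (8.3%).

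By likeness over all 36 libraries (Pearson r of log2 CPM, given as a description), the genes closest to Thrb were Col6a2 (r = 0.93), Cited1 (0.93) and Sv2a (0.92). Cited1, a transcriptional coactivator gene, went from 201 CPM in long photoperiod to 1563 CPM in late pre-hibernation and 351.8 CPM in the refractory group. Col6a2, a collagen VI chain gene, went from 6.11 to 68.97 and 20.6 CPM. Closest to Slco1c1 were Anxa9 (0.90), Col9a3 (0.89) and Gldc (0.86). Closest to Hr were Pde8a (0.82), Il6r (0.80) and Osbpl3 (0.79). Without the 3 rRNA-rich libraries, 4 of these 9 genes were still among the closest 3. The values include the differences between groups, and all genes share the same libraries and scaling factors.

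Within groups, some pairs of members also varied together from animal to animal. After the group mean was taken from each log2 CPM value, Tshr and Thrb moved in the same direction over the 36 libraries (r = 0.69, rho = 0.74, permutation adjusted p = 0.00028 for each, over 28 pairs of members; the unadjusted p of 1e-05 is the smallest that 100000 permutations within groups can give). Slco1c1 and Crym did so as well (r = 0.62, rho = 0.74, permutation adjusted p = 0.00042 for each). Without the 2 libraries farthest from the median on the first gene, r was 0.69 and 0.67. Tshr also went with Slco1c1 (r = 0.51, rho = 0.52) and Crym (r = 0.60, rho = 0.51), and against Thra (r = -0.49, rho = -0.51), with permutation adjusted p of 0.0185 to 0.0452 for r and 0.0198 for rho. These 5 of 28 pairs passed by both measures. The share of pairs that would pass over all genes was not computed, and all genes share the same libraries and scaling factors. Whether the members vary together more than other genes do was therefore not tested. Thrb and Hr gave r = -0.31 within groups (permutation adjusted p = 0.237). How much each cut held of one stretch of the ventricle wall or another was not tested.

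**Figure D5:**
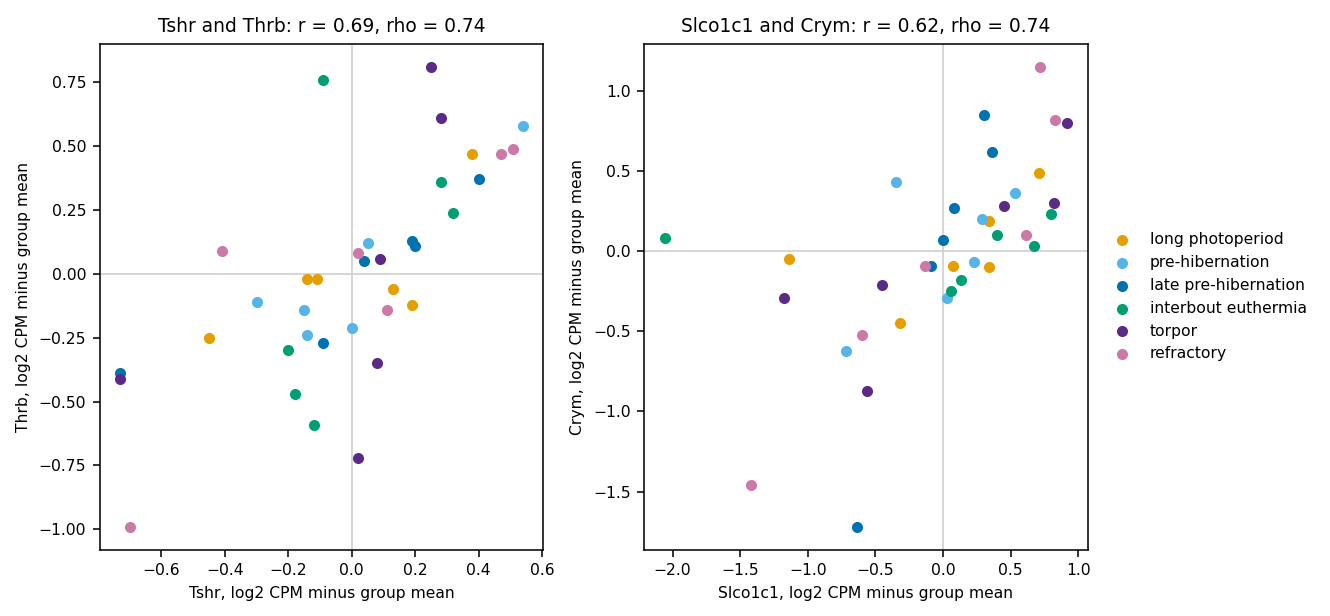
Log2 CPM minus the group mean for Thrb against Tshr (left) and Crym against Slco1c1 (right). Each point is 1 of 36 libraries, coloured by group. Libraries with more Tshr than their group's mean tended to have more Thrb (r = 0.69), and those with more Slco1c1 had more Crym (r = 0.62), with interbout euthermia 6 far to the left on the Slco1c1 axis.

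The wider axis was followed in a list of 35 other genes, of which 29 were found by symbol and 25 could be tested. Of the 25, 6 differed among the 6 groups, beside 14.6% of all genes tested: Dio2, Dio3, Cga, Eya3, Thrap3 and Ttr. Ttr lost its call in 3 of 36 fits that left out 1 library. Dio2, which makes the active hormone, fell in pre-hibernation, late pre-hibernation, torpor and the refractory group against long photoperiod (log2 fold changes -3.06, -3.13, -2.62 and -3.19), and Dio3, which inactivates it, rose in pre-hibernation (3.01) and torpor (2.71, not called without torpor 6, adjusted p = 0.061). Dio2 stood at 5.06 CPM in the refractory group and 44.7 CPM in long photoperiod, a pair of groups in which Thrb and Hr did not pass.

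Against long photoperiod, 1 of the 25 rose and 1 fell in pre-hibernation, and 3 rose and 4 fell in torpor. Late pre-hibernation, interbout euthermia and the refractory group had 0 rises and 1 fall each. The shares of all genes called were 2.29% in pre-hibernation, 9.05% in torpor, 3.58% in late pre-hibernation, 1.85% in interbout euthermia and 0.329% in the refractory group. In torpor Thrap3, a thyroid hormone receptor associated protein gene, rose (0.37, adjusted p = 0.00621). Eya3, a coactivator known from the pars tuberalis, fell with no overlap between the libraries (-0.45, 0.0153), and the coactivator gene Ncoa3 fell (-0.44, 0.027). Rxra, which encodes a partner of the thyroid hormone receptors, rose (0.28, 0.0352) but lost its call in 9 of 12 fits that left out 1 library, and Ncoa3 in 3 of 12. Eya3 also fell in torpor against interbout euthermia (-0.58, adjusted p = 0.00332), the pair in which no member was called.

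Cga, the common subunit of the thyrotropin and gonadotropin hormones, fell from 39.3 CPM in long photoperiod to 0.643 CPM in interbout euthermia (adjusted p = 0.0421) and 1.30 CPM in torpor (0.0288), but lost these calls in 11 and 6 of 12 fits that left out 1 library. Tshb, the thyrotropin-specific subunit, stayed between 1.19 and 2.57 CPM and was not called. The corepressor gene Ncor1 and the receptor partners Rxrb and Rxrg were not called against long photoperiod.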

How the data were processed

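Gene counts were taken as deposited, raw and in 1 table per library. Per the file headers, featureCounts 2.0.1 had assigned paired fragments to RefSeq exons of BCM_Maur_2.0 without strand. The aligner's version was not given in the sources used here. RNA integrity numbers lay between 7 and 9, and each library came from 1 brain, per the labels' protocols. Library totals stand with the results. Pairs of libraries within groups were compared, and none was identical.

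The fit was edgeR 4.0.16 (R 4.3.3): filterByExpr, TMM and a robust quasi-likelihood model over the 36 libraries, with p values adjusted over 17926 genes. It was also run on simulated counts with known changes, drawn from the means, spreads and library sizes of these data. The simulation held no outlying or rRNA-rich libraries, so it does not test the fit on these, and its outcome is not given here. Log2 CPM used a prior count of 2, and levels per kb the exon length of the count tables. Correlations within groups used 100000 permutations. Members, lists, tests and the rule that names genes (all members, pathway genes that passed, and the 3 most similar genes of each member that differed among groups) were chosen with earlier results of these data known.

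Settings were varied one at a time: RLE factors, DESeq2 1.42.0, voom with quality weights (limma 3.58.1), 2 other filters (1 CPM in 6 libraries, or any count), a replicate block, only the 2 groups compared, only 3 of the long photoperiod libraries, no rRNA-rich libraries, ribosomal RNA and mitochondrial genes taken out, and each library left out in turn. Gene sequences were not used here. Some genes of the pathway list are not reported here.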

Additional observations from a re-analysis of the deposited data

Results flagged for a closer look

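In 48 groups of 6 libraries (8 members in 6 groups), 7 held 1 library far from the other 5 by Dixon's test; chance flags about 1 in 20 groups. Tshr stood at 146.9 CPM in pre-hibernation 4, with the next library at 104.3 CPM, and at 57.92 CPM in torpor 4, with the next at 97.31 CPM. Slc7a8 stood at 13.02 CPM in refractory 4, the library with 41.8% ribosomal RNA, against 6.911 CPM in the next. Thra stood at 32.32 CPM in late pre-hibernation 2 (next 47.27 CPM) and at 46.42 CPM in interbout euthermia 6 (next 37.75 CPM). Thrb stood at 44.62 CPM in long photoperiod 6, where the next library was at 31.77 CPM and where Slco1c1 and Crym were also the highest of their group. Klf9 stood at 30.4 CPM in pre-hibernation 5 (next 19.95 CPM). Of the 7, 3 were in rRNA-rich libraries.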

How the results depend on the processing

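Of 18 differences called for a member, 7 were called in all alternatives that gave a value and in all fits that left out 1 library: Thrb in late pre-hibernation, interbout euthermia and torpor against long photoperiod, in the refractory group against late pre-hibernation and among the 6 groups, and Hr in torpor against long photoperiod and among the 6 groups. No called difference changed sign. RLE factors, and ribosomal RNA and mitochondrial genes removed, left all counts of called members within 1.5 times, and RLE factors moved 54 of 54 levels per kb by less than 1 SD.

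The count of members among the 6 groups was 3, and 6 with DESeq2, 7 with limma voom and 5 without the 3 rRNA-rich libraries. In pre-hibernation against long photoperiod it was 2, and 7 with limma voom, 1 with no filter beyond 1 count, 1 with long photoperiod 1 to 3 alone, 0 with long photoperiod 4 to 6 alone and 4 without the rRNA-rich libraries. In late pre-hibernation it was 3, and 7, 1 and 5 with limma voom, long photoperiod 4 to 6 alone and no rRNA-rich libraries. In interbout euthermia it was 1, and 2 with limma voom and 3 with the 2 groups alone. In torpor it was 2, and 4 with limma voom. With limma voom 11.7%, 17.1%, 8.61% and 23.8% of all genes were called in these 4 contrasts, in place of 2.29%, 3.58%, 1.85% and 9.05%. For interbout euthermia against late pre-hibernation and torpor against interbout euthermia it was 0, and 1 each with limma voom. For the refractory group against interbout euthermia it was 2, and 1 with limma voom, 1 with the filter of 1 CPM in 6 libraries, 1 with the replicate block, and 0 with the 2 groups alone or without the rRNA-rich libraries. The cause of these changes was not tested. Fits with 3 controls or 2 groups hold fewer libraries. The refractory group against interbout euthermia called 3.5% of all genes in the main fit and 6.53% with limma voom. It called 1.22% with the replicate block and 3.02% without the rRNA-rich libraries. For other filters, 3 controls, 2 groups alone and 1 library left out, the share of all genes is not given here. Member counts in those fits therefore cannot be set against it.

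With each library left out in turn, the counts ranged from 2 to 4 among the 6 groups, 1 to 2 in pre-hibernation, 3 to 4 in late pre-hibernation, 1 to 1 in interbout euthermia, 2 to 3 in torpor and 0 to 0 in the refractory group against long photoperiod, 0 to 2 in the refractory group against interbout euthermia, and 0 to 0 in the other 3 contrasts. Calls were added for Tshr among the 6 groups without late pre-hibernation 4, torpor 4 or refractory 6 (adjusted p 0.0284 to 0.0461) and in the refractory group against late pre-hibernation without late pre-hibernation 4 (0.0428). They were added among the 6 groups for Thra without long photoperiod 1, late pre-hibernation 2 or interbout euthermia 6 (0.0229 to 0.0409), for Slc7a8 without interbout euthermia 1 or refractory 1 (0.0407 to 0.0476), and for Klf9 without pre-hibernation 5 (0.0324, and 0.0252 in the refractory group against pre-hibernation).

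Of 90 pairs of libraries with the same replicate number, 23 had deviations that correlated above 0.1 (range -0.338 to 0.481), and 5 of 36 libraries correlated best with one of their own number. No such range was computed for pairs with different numbers. Whether the numbers mark a pairing or a batch was therefore not tested. With the replicate block, 1915 genes differed among the 6 groups in place of 2625, and 219 in place of 628 between the refractory group and interbout euthermia. Depth limited Slc16a10, with a median of 5 counts.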
